A study of Mus musculus with 11 samples.

Results

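Collagens are the triple-helical proteins that give the extracellular matrix its tensile strength, and their messenger RNAs were followed here in mouse gastrocnemius muscle after deletion of Raptor alone or of Raptor and mTOR together. Members were chosen by name alone: every protein-coding gene whose mouse symbol reads Col, a number, the letter a and a number. This gave 44 genes of the 55487 in the deposited gene tables, 21974 of which are protein coding. Of the 44, 11 belong to the fibrillar class, 6 to the basement membrane class (type IV) and 27 to the other classes, and 26 had enough counts to be tested. RNA came from the gastrocnemius, a hindlimb calf muscle, and was read by QuantSeq 3' mRNA FWD sequencing, which counts fragments near the 3' end of polyadenylated transcripts. The double knockout (4 mice) carried loxP-flanked Raptor and mTOR alleles, the Raptor knockout (3 mice) carried loxP-flanked Raptor alleles, and 4 wild-type mice were the controls. In the knockout lines, a Cre recombinase fused to a mutated oestrogen receptor domain was driven by the human skeletal actin (HSA) promoter, which is active in myofibres. All 3 groups were recorded as given tamoxifen, which was fed in chow for 7 weeks to mice 3 months old at its start, and muscles were taken 7 months after that start. Each mouse gave 1 library from 450 ng of RNA. Raptor marks mTOR complex 1, a kinase complex that senses nutrients, and mTOR is the kinase itself, shared with mTOR complex 2.

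In muscle, fibrillar collagens of types I, III and V form the cables of the endomysium, perimysium and tendon and are made mainly by fibroblasts, fibro-adipogenic progenitors and tenocytes rather than by myofibres. Type IV collagen forms the sheet of the basement membrane around each myofibre and capillary, and type VI forms the beaded filaments that link that sheet to the fibrils. Newly made chains are hydroxylated and folded in the endoplasmic reticulum, trimmed outside the cell and then cross-linked by lysyl oxidases. The promoter that drives Cre here directs recombination to myofibres.

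Library totals were 2791339 to 3536731 counts in the double knockout, 3223797 to 3764879 in the Raptor knockout and 3134575 to 6328533 in wild type, and 10505 genes were tested. Levels are TMM-scaled CPM, a gene's counts over the library total times the library's TMM factor. These factors were 0.999 to 1.14 in the double knockout, 1.03 to 1.06 in the Raptor knockout and 0.8699 to 0.965 in wild type. Folds are group ratios from the edgeR quasi-likelihood fit over all 11 libraries. A gene is called at a Benjamini-Hochberg adjusted p under 0.05 over all tested genes. Rptor, which encodes Raptor, stood at 5.37, 5.12, 4.77 and 4.07 CPM in the double-knockout libraries, 3.85, 4.87 and 4.99 CPM in the Raptor-knockout libraries and 10.6, 9.65, 10.5 and 8.57 CPM in the wild-type libraries. Every library of both knockouts lay below every wild-type library for Rptor. Mtor stood at 39.5, 31.8, 34.7 and 37.5 CPM in the double-knockout libraries, 18.2, 21.1 and 22.6 CPM in the Raptor-knockout libraries and 15.2, 16.8, 22.9 and 28.2 CPM in the wild-type libraries, so its counts were higher, not lower, in the double knockout. In the deposited TPM the gap was wider, at 32.96 ± 4.97 TPM in the double knockout, 2.96 ± 0.146 TPM in the Raptor knockout and 3.27 ± 1.26 TPM in wild type (mean ± SD, n = 4, 3 and 4), and why the scales differ was not tested. Which exons the loxP sites flank is not given in the sources used here. Tags from the 3' end need not show a deletion elsewhere in a gene, so the Mtor counts do not check the double-knockout label. Why Mtor was higher was not tested, and genotypes are taken as labelled. Xist, transcribed from the inactive X chromosome, stood at 186, 95.6, 208 and 0.291 CPM in the double-knockout libraries, 0, 0 and 0 CPM in the Raptor-knockout libraries and 0, 0, 117 and 0 CPM in the wild-type libraries. Libraries with Xist were thus 3 of 4 in the double knockout, 0 of 3 in the Raptor knockout and 1 of 4 in wild type, and the labels give no sex. Double-knockout replicates 3 and 4 were in a smaller sequencing run and the other 9 libraries in a larger one. The mitochondrial ribosomal RNA mt-Rnr2 also varied between libraries, at 4967 to 17927 CPM in the double knockout, 3116 to 22423 CPM in the Raptor knockout and 4834 to 36524 CPM in wild type.

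Collagen messenger RNAs were higher in the double knockout than in wild type across most of the family. Of 26 tested members, 18 rose and 0 fell, against 13.0% of all 10505 tested genes that rose and 13.7% that fell. By the edgeR fit the largest rises were in Col19a1 (5.28-fold), Col8a1 (4.73-fold), Col3a1 (2.88-fold), Col14a1 (2.82-fold) and Col1a1 (2.78-fold). Col8a2, Col12a1, Col13a1, Col19a1 and Col20a1 were low in every wild-type library, and the count filter could admit them through knockout libraries alone. Without that filter, 19 of 44 members were called higher and 0 lower, against 1251 and 1611 of 21981 genes. For 16 members every double-knockout library lay above every wild-type library, a pattern seen in 13.1% of all tested genes, and 15 of these 16 were called. The median log2 fold change was 0.93 over the 26 members and 0.02 over all tested genes. By edgeR's unadjusted p under 0.05, 20 members were higher and 0 lower, against 1951 higher and 2033 lower of all 10505 tested genes. The DESeq2 Wald test called 17 members higher and 0 lower, against 1249 and 1437 of all tested genes. The groups differ in Xist: with log2 Xist as a covariate 10 members were called, and with the Xist-carrying libraries left out, which leaves 1 double-knockout library against 3 wild-type libraries, 4 were called (Col3a1, Col8a1, Col14a1 and Col19a1). In that setting the spread comes from the other groups, and the lone double-knockout library is assumed to vary like them. Of all genes, 238 were then called higher, against 1367 with every library. With the covariate, 889 of all 10505 tested genes were called higher and 980 lower. All 18 members kept a log2 fold change above 0 in both settings. These ran from 0.39 to 2.65 with the covariate and from 0.34 to 2.57 without the Xist-carrying libraries. In bulk muscle RNA, a change in the number of matrix-making cells and a change in the RNA made per cell cannot be told apart.

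In the Raptor knockout, 9 of the 26 tested members rose over wild type and 0 fell, against 8.73% of all tested genes that rose and 9.43% that fell. These were Col1a1, Col3a1 and Col5a2 of the fibrillar class and Col6a3, Col8a1, Col8a2, Col12a1, Col14a1 and Col19a1 of the other classes; no type IV gene was called. Every Raptor-knockout library lay above every wild-type library for 8 members, against 14.0% of all tested genes. The median log2 fold change was 0.60 over the 26 members and 0.00 over all tested genes. By edgeR's unadjusted p under 0.05, 12 members were higher and 0 lower, against 1646 higher and 1686 lower of all 10505 tested genes. The DESeq2 Wald test called 8 members higher and 0 lower, against 824 and 1082 of all tested genes. Without the count filter, 8 of 44 members were called higher and 0 lower, against 828 and 1153 of 21981 genes. None of the 3 Raptor-knockout libraries carried Xist, and against the 3 wild-type libraries that also lacked it 8 members were called. Of the 11194 genes tested in that setting, 555 were called higher and 710 lower. Both comparisons use the same 4 wild-type libraries, so their calls are not independent of each other.

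**Figure D1:**
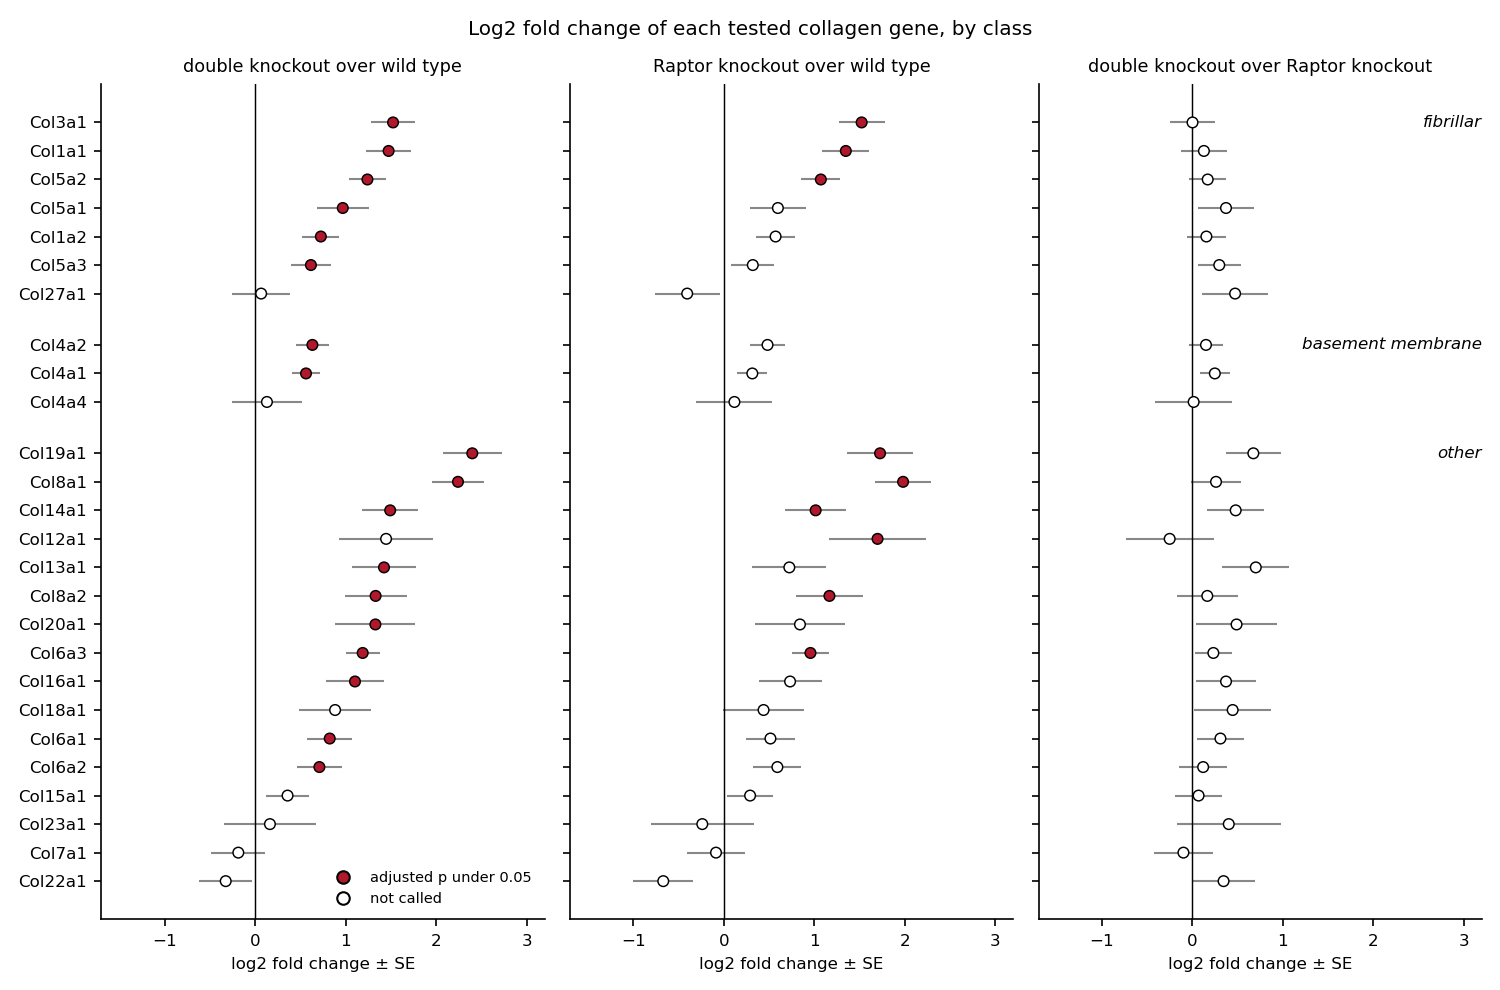
Log2 fold change with its standard error for the 26 tested collagen genes, grouped as fibrillar, basement membrane and other, for the double knockout over wild type, the Raptor knockout over wild type and the double knockout over the Raptor knockout. Filled points passed an adjusted p under 0.05: 18 in the first panel, 9 in the second and 0 in the third.

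Among the fibrillar collagens, 6 of 7 tested members rose in the double knockout and 3 of 7 in the Raptor knockout, where 13.0% and 8.73% of all tested genes rose. With the Xist covariate 3 of 7 were called in the double knockout, and the calls on Col1a2 (log2 fold change 0.56, edgeR adjusted p = 0.0879), Col5a1 (0.67, edgeR adjusted p = 0.166) and Col5a3 (0.39, edgeR adjusted p = 0.266) were lost. Col1a1 (ENSMUSG00000001506, GRCm38 chromosome 11, 94936224 to 94953042), which encodes the alpha 1 chain of type I collagen, the main fibril of tendon and perimysium, stood at 209.9, 191, 143 and 111 CPM in the double-knockout libraries, 157, 113 and 179 CPM in the Raptor-knockout libraries and 41.2, 48.3, 83.6 and 60.6 CPM in the wild-type libraries. The lowest library of either knockout was above the highest wild-type library. Col1a1 was 2.78-fold higher in the double knockout (log2 fold change 1.48, SE 0.25, edgeR adjusted p = 0.000562) and 2.55-fold higher in the Raptor knockout (log2 fold change 1.35, SE 0.26, edgeR adjusted p = 0.00256). Its partner chain Col1a2 (ENSMUSG00000029661, chromosome 6, 4504814 to 4541544) stood at 156, 122, 179 and 145 CPM in the double-knockout libraries, 115, 156 and 134 CPM in the Raptor-knockout libraries and 83.99, 103, 121 and 55.002 CPM in the wild-type libraries. The double-knockout libraries again lay above the wild-type ones, by a narrow gap at double-knockout replicate 2 and wild-type replicate 3, whereas the Raptor-knockout range reached into that of wild type. The rise of Col1a2 was 1.66-fold in the double knockout (log2 fold change 0.73, SE 0.203, edgeR adjusted p = 0.01501) and was not called in the Raptor knockout (log2 fold change 0.57, SE 0.22, edgeR adjusted p = 0.0807). The double-knockout call on Col1a2 was lost without double-knockout replicate 3 (0.63) or wild-type replicate 1 (0.704), with the log2 fold change in parentheses, and with the smaller run left out (0.61); the Raptor-knockout fold was called without wild-type replicate 3 (0.71). The ratio of Col1a1 to Col1a2 CPM was 0.762 to 1.57 in the double knockout, 0.721 to 1.36 in the Raptor knockout and 0.467 to 1.102 in wild type, so its ranges overlapped.

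Col3a1 (ENSMUSG00000026043, chromosome 1, 45311538 to 45349706), the only chain of type III collagen, which runs with type I in the endomysium, stood at 224, 187, 173 and 137 CPM in the double-knockout libraries, 192, 166 and 183 CPM in the Raptor-knockout libraries and 48.6, 60.1, 100.3 and 40.1 CPM in the wild-type libraries. Neither knockout overlapped with wild type, and wild-type replicate 3 was the highest of its group. Col3a1 rose 2.88-fold in the double knockout (log2 fold change 1.53, SE 0.24, edgeR adjusted p = 0.000394) and 2.88-fold in the Raptor knockout (log2 fold change 1.52, SE 0.26, edgeR adjusted p = 0.00103). Both calls on Col3a1 held in every setting tried. Its neighbour on chromosome 1, Col5a2 (ENSMUSG00000026042, chromosome 1, 45374321 to 45503282), encodes a chain of type V collagen, a minor component that starts and limits the growth of type I fibrils. Col5a2 stood at 26.2, 22.4, 24.6 and 17.4 CPM in the double-knockout libraries, 21.02, 20.03 and 19.4 CPM in the Raptor-knockout libraries and 8.05, 12.2, 11.5 and 6.76 CPM in the wild-type libraries. Again no knockout library of either kind fell within the wild-type range. The rise was 2.37-fold in the double knockout (log2 fold change 1.24, SE 0.202, edgeR adjusted p = 0.000273) and 2.104-fold in the Raptor knockout (log2 fold change 1.07, SE 0.22, edgeR adjusted p = 0.00248).

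Col5a1 (ENSMUSG00000026837, chromosome 2, 27886425 to 28039514), the alpha 1 chain of type V collagen, stood at 35.4, 23.4, 21.5 and 16.9 CPM in the double-knockout libraries, 22.8, 12.2 and 21.1 CPM in the Raptor-knockout libraries and 6.21, 14.3, 15.1 and 13.8 CPM in the wild-type libraries. Double-knockout replicate 1 was the highest of its group and wild-type replicate 1 the lowest of its own, and the double-knockout and wild-type ranges did not overlap. Col5a1 was 1.96-fold higher in the double knockout (log2 fold change 0.97, SE 0.29, edgeR adjusted p = 0.0221), a call lost without double-knockout replicate 1 (0.73), and was not called in the Raptor knockout (log2 fold change 0.598, SE 0.31, edgeR adjusted p = 0.207). Col5a3 stood at 30.7, 29.6, 19.9 and 21.5 CPM in the double-knockout libraries, 18.2, 18.95 and 24.95 CPM in the Raptor-knockout libraries and 11.05, 14.7, 22.5 and 17.1 CPM in the wild-type libraries. Its groups overlapped in both comparisons. The 1.53-fold rise of Col5a3 in the double knockout (log2 fold change 0.62, SE 0.22, edgeR adjusted p = 0.0472) was lost without double-knockout replicate 1 (0.51) or 2 (0.53), Raptor-knockout replicate 1 (0.62), 2 (0.61) or 3 (0.61) or wild-type replicate 1 (0.48), 2 (0.59) or 4 (0.63) and under the DESeq2 Wald test (0.61). In the Raptor knockout Col5a3 was not called (log2 fold change 0.32, SE 0.24, edgeR adjusted p = 0.381). Col27a1, a fibrillar collagen best known from cartilage, stood at 2.62 to 3.79 CPM in the double knockout, 1.28 to 3.23 CPM in the Raptor knockout and 2.503 to 3.16 CPM in wild type, with overlapping groups and no call (double knockout over wild type 0.07, SE 0.32, edgeR adjusted p = 0.914).

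**Figure D2:**
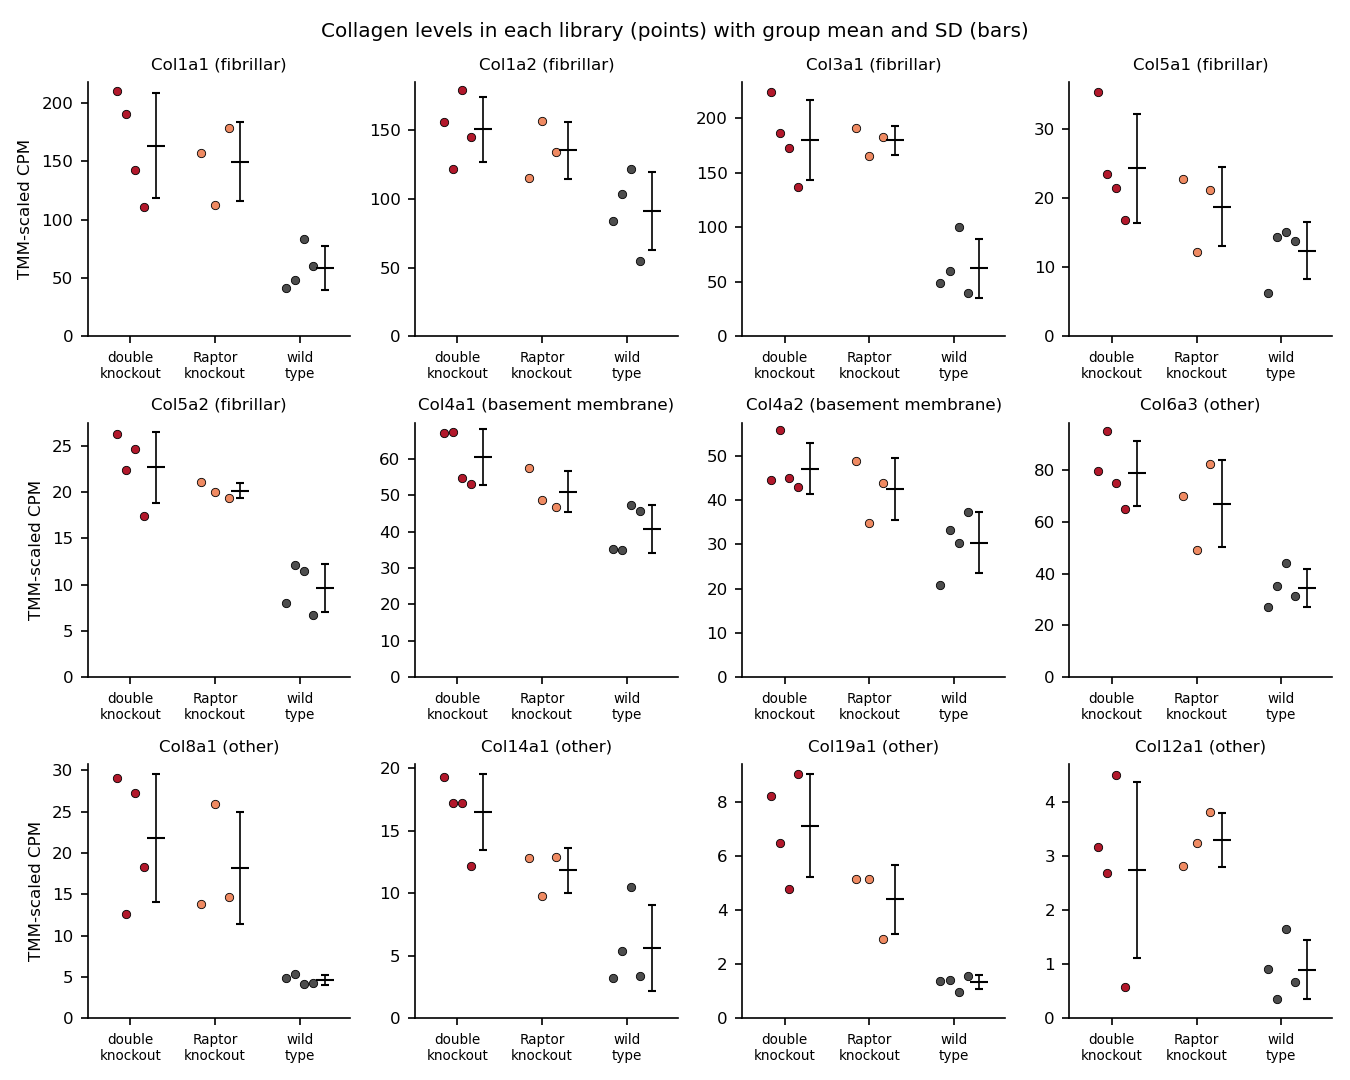
CPM scaled by TMM of 12 collagen genes in each library (points) with the group mean and SD (bars), for the double knockout (n = 4), the Raptor knockout (n = 3) and wild type (n = 4). For Col1a1, Col3a1, Col5a2, Col6a3, Col8a1 and Col19a1 no library of either knockout lies within the wild-type range; for Col12a1 one double-knockout library, replicate 4 at 0.581 CPM, does.

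In the basement membrane class, 2 of 3 tested genes rose in the double knockout, by 1.48-fold and 1.55-fold, and none of the 3 was called in the Raptor knockout by edgeR (1 at an unadjusted p under 0.05) or by DESeq2 (0). By edgeR, 13.0% of all tested genes rose in the double knockout and 8.73% in the Raptor knockout. Col4a1 and Col4a2 encode the type IV chains present in nearly all basement membranes, and the genes lie head to head on chromosome 8, with annotated starts 21 bases apart on opposite strands. Their RefSeq promoter windows (GRCm38.p6, 250 bases before to 50 after the start) therefore share 78 bases, at chr8:11312777-11312854, and are shown because this pair starts from 1 stretch of DNA. The Col4a1 window is chr8:11312777-11313076 on the minus strand and the Col4a2 window chr8:11312555-11312854 on the plus strand. Capitals mark a CCAAT box, read as CCAAT or its complement ATTGG.
Col4a1: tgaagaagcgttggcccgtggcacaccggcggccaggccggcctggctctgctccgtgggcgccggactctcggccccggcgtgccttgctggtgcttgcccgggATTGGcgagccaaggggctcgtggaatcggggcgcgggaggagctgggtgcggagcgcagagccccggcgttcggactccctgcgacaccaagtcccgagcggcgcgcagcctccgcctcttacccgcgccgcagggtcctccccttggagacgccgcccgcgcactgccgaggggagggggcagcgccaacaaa
Col4a2: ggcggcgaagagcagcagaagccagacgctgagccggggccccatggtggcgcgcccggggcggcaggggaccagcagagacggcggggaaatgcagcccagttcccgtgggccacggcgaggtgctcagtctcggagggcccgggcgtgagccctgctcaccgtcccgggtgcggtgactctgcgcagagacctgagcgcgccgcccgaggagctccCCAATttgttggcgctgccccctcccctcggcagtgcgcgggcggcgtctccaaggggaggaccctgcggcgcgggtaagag
The Col4a1 window holds its box in the ATTGG sense 145 bases before the start and the Col4a2 window its box 32 bases before the start, and neither holds TATAAA. A match is a description of letters, not of a bound site.

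Col4a1 (ENSMUSG00000031502, chromosome 8, 11198423 to 11312826) stood at 67.002, 67.3, 54.6 and 53.2 CPM in the double-knockout libraries, 57.4, 48.7 and 46.7 CPM in the Raptor-knockout libraries and 35.2, 35.04, 47.4 and 45.5 CPM in the wild-type libraries. All double-knockout libraries lay above wild type, and the Raptor-knockout libraries overlapped with it. It rose 1.48-fold in the double knockout (log2 fold change 0.56, SE 0.15, edgeR adjusted p = 0.01195) and was not called in the Raptor knockout (log2 fold change 0.32, SE 0.16, edgeR adjusted p = 0.201). Col4a2 (ENSMUSG00000031503, chromosome 8, 11312805 to 11449287) stood at 44.6, 55.8, 45.1 and 43.01 CPM in the double-knockout libraries, 48.7, 34.9 and 43.7 CPM in the Raptor-knockout libraries and 20.9, 33.3, 30.3 and 37.2 CPM in the wild-type libraries. Double-knockout replicate 2 stood above the other 3 of its group, and all 4 lay above wild type. The rise of Col4a2 was 1.55-fold in the double knockout (log2 fold change 0.63, SE 0.18, edgeR adjusted p = 0.0153), a call lost without double-knockout replicate 2 (0.54). In the Raptor knockout it was not called (log2 fold change 0.48, SE 0.19, edgeR adjusted p = 0.0939), but it was without wild-type replicate 4 (0.60). With the Xist covariate neither type IV gene was called in the double knockout (Col4a1 0.43 and Col4a2 0.6004 on the log2 scale). The 2 genes overlap on opposite strands, and the strand setting of the authors' counting was not given, but the overlap lies at the 5' ends, away from the 3' tags. Col4a4, a chain of specialised basement membranes such as that of the kidney glomerulus, stood at 1.33 to 4.65 CPM in the double knockout, 1.79 to 4.06 CPM in the Raptor knockout and 1.97 to 3.22 CPM in wild type and was not called (log2 fold change 0.13, SE 0.39, edgeR adjusted p = 0.832 in the double knockout).

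Type VI collagen is built from chains encoded by Col6a1, Col6a2 and Col6a3, and defects in these genes cause Bethlem and Ullrich muscle disease in people. All 3 rose in the double knockout, and Col6a3 alone passed in the Raptor knockout, where 13.0% and 8.73% of all tested genes rose. With the Xist covariate Col6a3 alone passed in the double knockout too, with Col6a1 at a log2 fold change of 0.69 (edgeR adjusted p = 0.102) and Col6a2 at 0.67 (edgeR adjusted p = 0.144). Whether the chains differ from each other was not tested. Col6a3 (ENSMUSG00000048126, chromosome 1, 90765923 to 90843971) stood at 79.6, 94.8, 75.004 and 64.8 CPM in the double-knockout libraries, 69.7, 48.999 and 82.2 CPM in the Raptor-knockout libraries and 26.9, 35.04, 44.1 and 31.3 CPM in the wild-type libraries. The lowest library of either knockout was above the highest of wild type. The rise was 2.28-fold in the double knockout (log2 fold change 1.19, SE 0.19, edgeR adjusted p = 0.0002298) and 1.94-fold in the Raptor knockout (log2 fold change 0.96, SE 0.202, edgeR adjusted p = 0.00343). Col6a1 stood at 10.4, 9.697, 7.69 and 9.01 CPM in the double-knockout libraries, 9.999, 5.96 and 6.16 CPM in the Raptor-knockout libraries and 5.06, 5.01, 6.74 and 3.61 CPM in the wild-type libraries. The double-knockout libraries stood above wild type and those of the Raptor knockout overlapped with it. Col6a1 rose 1.77-fold in the double knockout (log2 fold change 0.83, SE 0.25, edgeR adjusted p = 0.0211), a call lost without double-knockout replicate 1 (0.76). Col6a2, which lies next to Col6a1 on chromosome 10, stood at 27.2, 25.05, 15.6 and 19.2 CPM in the double-knockout libraries, 23.1, 14.6 and 22.3 CPM in the Raptor-knockout libraries and 8.97, 11.1, 12.99 and 19.6 CPM in the wild-type libraries. Its groups overlapped. The 1.64-fold rise of Col6a2 in the double knockout (log2 fold change 0.71, SE 0.25, edgeR adjusted p = 0.0427) was lost without double-knockout replicate 1 (0.58) or 2 (0.64), Raptor-knockout replicate 1 (0.71) or 3 (0.71) or wild-type replicate 1 (0.58), 2 (0.66) or 3 (0.68). In the Raptor knockout, Col6a1 (log2 fold change 0.52, SE 0.27, edgeR adjusted p = 0.204) and Col6a2 (log2 fold change 0.59, SE 0.27, edgeR adjusted p = 0.137) were not called, and Col6a2 was without wild-type replicate 4 (0.85).

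The short-chain collagens of type VIII, which form hexagonal networks in vessel walls and the cornea, had both tested genes higher in each knockout. Among all tested genes 13.0% rose in the double knockout and 8.73% in the Raptor knockout. Col8a1 (ENSMUSG00000068196, chromosome 16, 57624258 to 57754737) stood at 29.1, 12.7, 27.3 and 18.3 CPM in the double-knockout libraries, 13.8, 25.99 and 14.7 CPM in the Raptor-knockout libraries and 4.83, 5.36, 4.11 and 4.28 CPM in the wild-type libraries. The wild-type libraries kept to a narrow range, and each knockout library was above it. Col8a1 rose 4.73-fold in the double knockout (log2 fold change 2.24, SE 0.29, edgeR adjusted p = 3.78e-05) and 3.95-fold in the Raptor knockout (log2 fold change 1.98, SE 0.31, edgeR adjusted p = 0.000365), and both calls held in every setting. By limma on log2(TPM + 1), a scale that shrinks the folds of low genes, Col8a1 had a log2 fold change of 1.46 in the double knockout and 1.204 in the Raptor knockout. Col8a2 stood at 3.79, 2.96, 5.301 and 3.78 CPM in the double-knockout libraries, 4.102, 3.25 and 3.23 CPM in the Raptor-knockout libraries and 1.38, 1.79, 0.987 and 2.25 CPM in the wild-type libraries. No knockout library reached down to the wild-type range. It rose 2.52-fold in the double knockout (log2 fold change 1.33, SE 0.34, edgeR adjusted p = 0.008595); with the smaller run left out that call was lost (1.09). The 2.25-fold rise of Col8a2 in the Raptor knockout (log2 fold change 1.17, SE 0.37, edgeR adjusted p = 0.0376) was lost without double-knockout replicate 1 (1.15), Raptor-knockout replicate 1 (1.04), 2 (1.22) or 3 (1.22) or wild-type replicate 1 (1.13), 2 (1.23) or 3 (0.91).

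Of the fibril-associated collagens, which sit on the surface of fibrils, 4 of 6 tested members rose in the double knockout and 3 of 6 in the Raptor knockout. The shares over all tested genes were 13.0% and 8.73%. With the Xist covariate Col14a1, Col19a1 and Col20a1 were still called in the double knockout and Col16a1 was not. Col19a1 (ENSMUSG00000026141, chromosome 1, 24261890 to 24587472), a rare collagen of basement membrane zones, stood at 8.22, 6.46, 4.77 and 9.01 CPM in the double-knockout libraries, 5.13, 5.14 and 2.94 CPM in the Raptor-knockout libraries and 1.38, 1.43, 0.987 and 1.58 CPM in the wild-type libraries. Every knockout library was above the highest wild-type one. It rose 5.28-fold in the double knockout (log2 fold change 2.401, SE 0.32, edgeR adjusted p = 4.98e-05) and 3.31-fold in the Raptor knockout (log2 fold change 1.73, SE 0.36, edgeR adjusted p = 0.003197), from 171 counts in all 11 libraries together. By limma on log2(TPM + 1) with no filter, Col19a1 had a log2 fold change of 0.89 in the double knockout (limma adjusted p = 0.002597), below that of Col8a1, and in the Raptor knockout its call was lost (0.52, limma adjusted p = 0.0748). Col14a1 (ENSMUSG00000022371, chromosome 15, 55307750 to 55520803), which binds type I fibrils, stood at 19.3, 17.2, 17.2 and 12.2 CPM in the double-knockout libraries, 12.8, 9.75 and 12.9 CPM in the Raptor-knockout libraries and 3.22, 5.36, 10.5 and 3.38 CPM in the wild-type libraries. Wild-type replicate 3 was the highest of its group and lay within the Raptor-knockout range but below all double-knockout libraries. Col14a1 rose 2.82-fold in the double knockout (log2 fold change 1.49, SE 0.31, edgeR adjusted p = 0.00210). Its 2.02-fold rise in the Raptor knockout (log2 fold change 1.02, SE 0.34, edgeR adjusted p = 0.0481) was lost without double-knockout replicate 1 (1.003), 2 (1.02) or 3 (1.02), Raptor-knockout replicate 1 (0.95), 2 (1.13) or 3 (0.95) or wild-type replicate 1 (0.83), 2 (1.0005) or 4 (0.81).

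Col12a1, a relative of Col14a1 that also coats type I fibrils, stood at 3.16, 2.69, 4.51 and 0.581 CPM in the double-knockout libraries, 2.82, 3.25 and 3.82 CPM in the Raptor-knockout libraries and 0.9205, 0.358, 1.64 and 0.676 CPM in the wild-type libraries, from 93 counts in all. Double-knockout replicate 4 lay within the wild-type range and the other double-knockout and all Raptor-knockout libraries above it. The 2.73-fold difference of Col12a1 in the double knockout just missed the threshold (log2 fold change 1.45, SE 0.52, edgeR adjusted p = 0.0503) and passed without double-knockout replicate 4 (1.79) or wild-type replicate 3 (1.94). With the Xist-carrying libraries left out, its log2 fold change was -0.24, resting on that same replicate 4 as the only double-knockout library. The 3.25-fold rise of Col12a1 in the Raptor knockout (log2 fold change 1.6997, SE 0.54, edgeR adjusted p = 0.0386) was lost without double-knockout replicate 1 (1.69), Raptor-knockout replicate 1 (1.81), 2 (1.71) or 3 (1.59) or wild-type replicate 1 (1.69), 2 (1.53) or 4 (1.55). Col16a1 stood at 9.48, 6.46, 5.83 and 3.78 CPM in the double-knockout libraries, 5.64, 3.79 and 5.28 CPM in the Raptor-knockout libraries and 1.84, 2.86, 2.96 and 4.06 CPM in the wild-type libraries. The highest wild-type library reached into the double-knockout range. Its 2.15-fold rise in the double knockout (log2 fold change 1.104, SE 0.32, edgeR adjusted p = 0.0167) was lost without double-knockout replicate 1 (0.86), with the Xist covariate (0.84, edgeR adjusted p = 0.139) and without the Xist-carrying libraries (0.34, edgeR adjusted p = 0.815). Col16a1 in the Raptor knockout was not called (log2 fold change 0.73, SE 0.35, edgeR adjusted p = 0.1603).

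Col20a1 stood at 2.53, 2.42, 3.71 and 4.07 CPM in the double-knockout libraries, 2.56, 2.44 and 1.76 CPM in the Raptor-knockout libraries and 1.61, 0.358, 0.658 and 2.25 CPM in the wild-type libraries. The double-knockout libraries were above the wild-type ones, and the Raptor-knockout libraries spanned both. Its 2.51-fold rise in the double knockout (log2 fold change 1.33, SE 0.44, edgeR adjusted p = 0.0350) was lost without Raptor-knockout replicate 1 (1.33) or wild-type replicate 2 (1.13) or 3 (1.04), and the gene fell below the count filter in 3 of the 11 settings that left out 1 library. Col20a1 is uncertain, because a gene annotated on the same strand, BX649560.1, overlaps it and had 114 counts against 92 for Col20a1. Col22a1, the collagen of the myotendinous junction, stood at 2.53, 3.502, 3.71 and 3.197 CPM in the double-knockout libraries, 1.79, 2.98 and 2.94 CPM in the Raptor-knockout libraries and 5.75, 3.58, 3.78 and 3.16 CPM in the wild-type libraries. All Raptor-knockout libraries lay below all wild-type ones, and the double-knockout range overlapped with wild type. Neither Col22a1 difference was called (log2 fold change -0.32, SE 0.296, edgeR adjusted p = 0.452 in the double knockout, and -0.67, SE 0.33, edgeR adjusted p = 0.181 in the Raptor knockout).

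The remaining tested members are transmembrane, multiplexin and anchoring-fibril collagens. Col13a1, a transmembrane collagen of the neuromuscular junction, stood at 2.84, 3.23, 3.45 and 3.49 CPM in the double-knockout libraries, 2.56, 1.62 and 1.76 CPM in the Raptor-knockout libraries and 0.9205, 1.07, 0.987 and 1.803 CPM in the wild-type libraries. Each double-knockout library was above each library of the other 2 groups. It rose 2.69-fold over wild type in the double knockout (log2 fold change 1.43, SE 0.36, edgeR adjusted p = 0.00752), from 89 counts in all, and was not called in the Raptor knockout (log2 fold change 0.72, SE 0.41, edgeR adjusted p = 0.2398). With the smaller run left out the double-knockout call on Col13a1 was lost (1.33), and on log2 of TPM + 1 its log2 fold change was 0.66. Col18a1, the multiplexin from which endostatin is cut, stood at 5.06, 3.502, 2.92 and 2.91 CPM in the double-knockout libraries, 3.33, 3.25 and 1.17 CPM in the Raptor-knockout libraries and 1.15, 1.07, 2.796 and 2.25 CPM in the wild-type libraries. Its double-knockout libraries lay above wild type, but the difference was not called (log2 fold change 0.88, SE 0.401, edgeR adjusted p = 0.116). The multiplexin Col15a1, a collagen of the outer basement membrane of muscle and capillaries, stood at 11.04 to 24.5 CPM in the double knockout, 11.1 to 20.8 CPM in the Raptor knockout and 11.3 to 15.6 CPM in wild type and was not called (log2 fold change 0.36, SE 0.24, edgeR adjusted p = 0.294 in the double knockout). The transmembrane Col23a1 (0.5301 to 4.04 CPM in the double knockout, 0.769 to 3.25 CPM in the Raptor knockout and 1.07 to 2.63 CPM in wild type) and Col7a1, the anchoring-fibril collagen of skin (2.53 to 4.36 CPM in the double knockout, 2.98 to 5.64 CPM in the Raptor knockout and 2.86 to 5.86 CPM in wild type), were also not called in either comparison with wild type, with overlapping groups throughout.

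The 18 members left untested had 1 to 67 counts over all 11 libraries. They were Col4a3, Col4a5 and Col4a6 of the basement membrane class and the cartilage fibril genes Col2a1, Col11a1 and Col11a2 with Col24a1. The others were the type IX genes Col9a1 (67 counts), Col9a2 and Col9a3, the type VI genes Col6a4, Col6a5 and Col6a6 (57 counts), and Col10a1, Col17a1, Col25a1, Col26a1 and Col28a1. Of these, 1 was called in an alternative setting. Col11a1, with 24 counts in the double knockout, 6 in the Raptor knockout and 10 in wild type, stood at 1.896, 1.35, 1.59 and 2.03 CPM in the double-knockout libraries, 0.256, 1.08 and 0.294 CPM in the Raptor-knockout libraries and 0.2301, 0.358, 0.822 and 0.676 CPM in the wild-type libraries. Every double-knockout library was above every library of the other 2 groups. By limma on log2(TPM + 1) with no filter on low values, Col11a1 was higher in the double knockout than in wild type (log2 fold change 0.48, limma adjusted p = 0.0232); edgeR with no filter did not call it. The other untested members were called in no setting tried.

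The levels of each class were also summed over all its members, tested or not. The fibrillar genes summed to 691, 579.9, 567 and 455 CPM in the double-knockout libraries, 529, 490.3 and 566 CPM in the Raptor-knockout libraries and 205, 258, 359.7 and 199 CPM in the wild-type libraries. The type IV genes summed to 116, 127, 102 and 103 CPM in the double-knockout libraries, 109, 88.5 and 93.9 CPM in the Raptor-knockout libraries and 59.1, 72.6, 80.3 and 85.9 CPM in the wild-type libraries. The other classes summed to 229, 228, 204 and 176 CPM in the double-knockout libraries, 191, 152 and 187 CPM in the Raptor-knockout libraries and 86.5, 94.7, 118 and 106 CPM in the wild-type libraries. For each class every library of either knockout lay above every wild-type library. The ratio of group means for the double knockout over wild type was 2.24 for the fibrillar class, 1.501 for the basement membrane class and 2.06 for the others. For the Raptor knockout over wild type these ratios were 2.07, 1.31 and 1.74 in the same order. Type IV genes made up 11.2 to 13.98% in the double knockout, 11.1 to 13.2% in the Raptor knockout and 14.4 to 21.9% in wild type of all collagen CPM, with the knockout libraries all below the wild-type ones. The fibrillar share was 61.98 to 66.7% in the double knockout, 63.8 to 67.1% in the Raptor knockout and 50.9 to 64.5% in wild type, and its groups overlapped. The whole family made up 0.07298 to 0.117% in the double knockout, 0.0746 to 0.0895% in the Raptor knockout and 0.0316 to 0.0536% in wild type of all counts. Col1a1, Col1a2 and Col3a1 together made up 53.4 to 56.97% in the double knockout, 56.03 to 59.5% in the Raptor knockout and 39.8 to 54.7% in wild type of the family's CPM, and the sums were not tested. The family's ratio of means for the double knockout over wild type was 2.07 by CPM and 2.43 by the share of counts, because the TMM factors differ between groups.

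**Figure D3:**
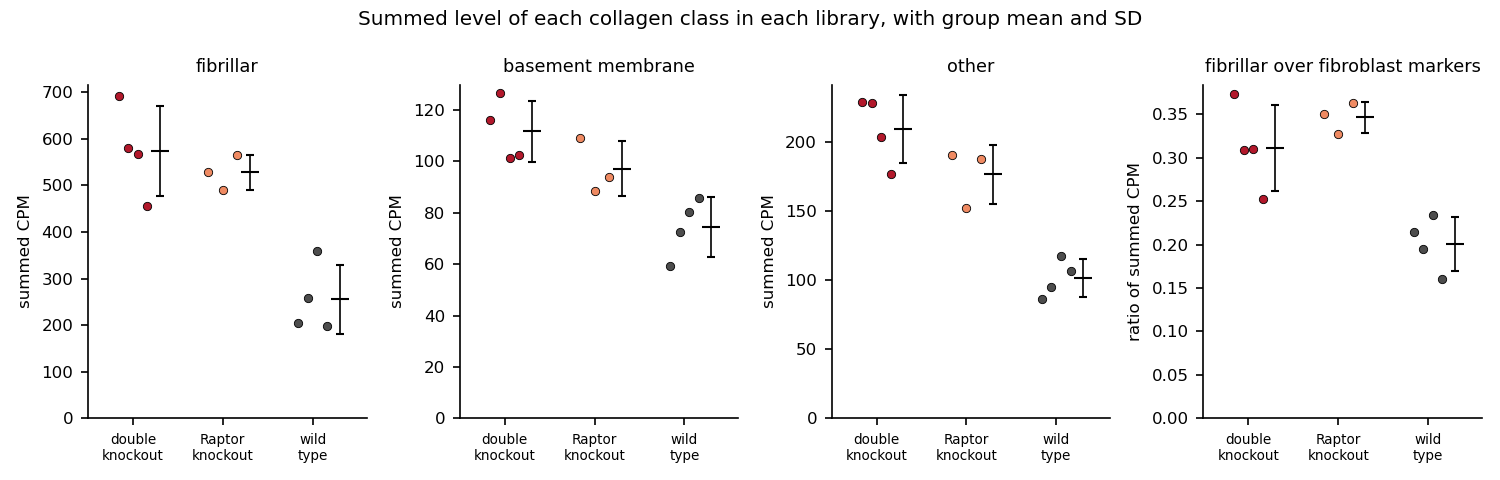
Summed CPM of the fibrillar, basement membrane and other collagen classes, and the ratio of summed fibrillar CPM to the summed CPM of 14 fibroblast marker genes, in each library (points) with group mean and SD (bars). In all 4 panels every library of the double knockout (n = 4) and the Raptor knockout (n = 3) lies above every wild-type library (n = 4).

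Levels between genes were compared on the deposited TPM scale, which divides by transcript length. Because 3' tags do not grow in number with transcript length, that division lowers long transcripts and the order is an approximate one. In wild type the highest mean TPM was that of Col1a2, followed by Col4a1, Col3a1 and Col1a1, and these neighbours did not differ beyond their spread. Col1a2 averaged 27.5 ± 5.53 TPM in the double knockout, 23.9 ± 4.16 TPM in the Raptor knockout and 15.1 ± 5.43 TPM in wild type (mean ± SD, n = 4, 3 and 4). Col3a1 averaged 31.9 ± 7.65 TPM in the double knockout, 30.3 ± 1.29 TPM in the Raptor knockout and 10.1 ± 4.91 TPM in wild type, and it led the family in both knockouts. Col1a1 averaged 26.7 ± 8.17 TPM in the double knockout, 23.4 ± 4.91 TPM in the Raptor knockout and 8.55 ± 3.11 TPM in wild type. Col4a1 averaged 17.99 ± 2.93 TPM in the double knockout, 11.1 ± 0.9296 TPM in the Raptor knockout and 10.8 ± 4.901 TPM in wild type, so the mean of this type IV chain, which stood beside the fibrillar genes in wild type, stood below theirs in the knockouts. In the double knockout its range of 15.2 to 21.1 TPM overlapped with the 16.97 to 36.2 TPM of Col1a1. Col15a1 followed in wild type, at 6.62 ± 0.896 TPM, and Col6a3 averaged 8.89 ± 1.29 TPM in the double knockout, 7.16 ± 1.55 TPM in the Raptor knockout and 3.56 ± 0.9896 TPM in wild type. At the other end, Col4a4, Col12a1 and Col19a1 had mean wild-type levels of 0.225, 0.242 and 0.212 TPM.

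**Figure D4:**
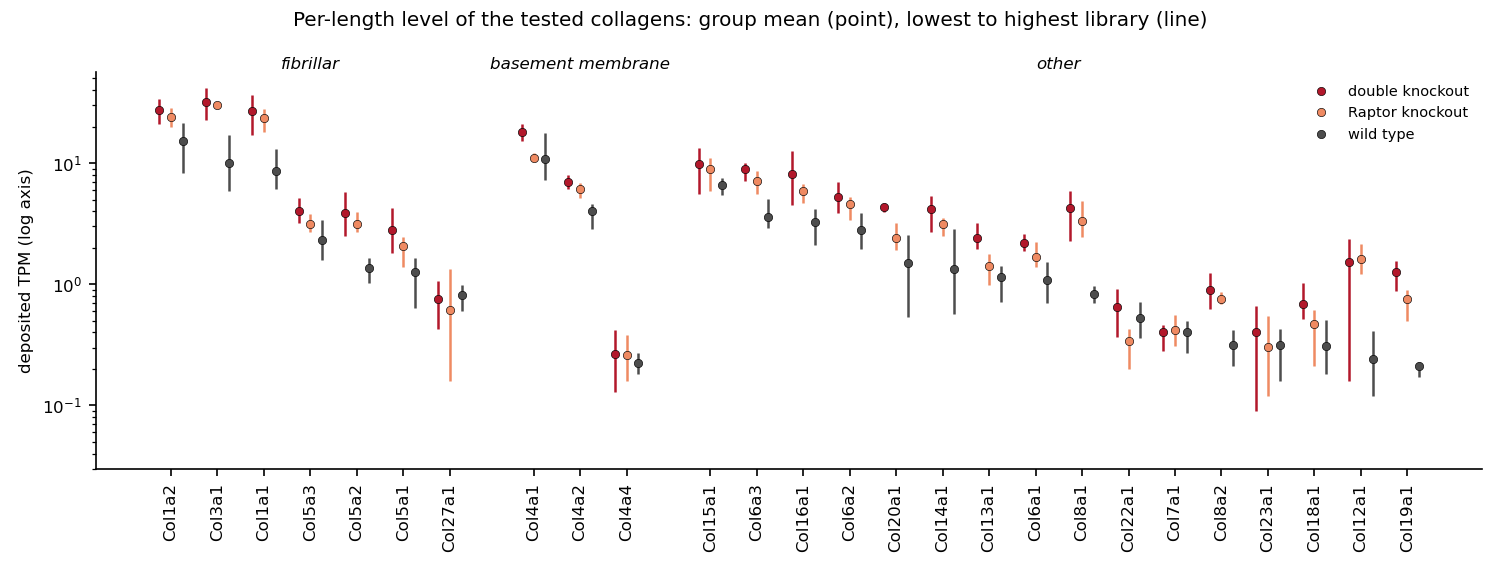
Deposited TPM of the 26 tested collagens on a log axis, by class and in falling order of the wild-type mean; points are group means and lines run from the lowest to the highest library. Col1a2, Col3a1 and Col1a1 lead the fibrillar class in all 3 groups, and Col19a1, lowest in wild type at 0.212 TPM, reaches 1.26 TPM in the double knockout.

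The study's remaining comparison set the double knockout against the Raptor knockout. By edgeR, 0 of 26 collagens were higher and 0 lower, against 0.00952% and 0.019% of all tested genes. The DESeq2 Wald test also called 0 of the 26, against 54 higher and 48 lower of all 10505 tested genes. The log2 fold change was above 0 for 24 of the 26, with a median of 0.25, against 0.01 over all tested genes. These groups differ in Xist too. With log2 Xist as a covariate 14 of the 26 were above 0, with a median of 0.03. With the Xist-carrying libraries left out 17 of 26 were above 0, with a median of 0.07. With the covariate the log2 fold change was -0.47 for Col1a1, -0.62 for Col3a1, -0.33 for Col14a1 and -1.86 for Col12a1. Without the Xist-carrying libraries it was -0.36 for Col16a1, -0.59 for Col15a1 and -2.42 for Col12a1. At edgeR's unadjusted p under 0.05, 1 member was higher and 0 lower in the fit without the covariate. Of all 10505 tested genes, 457 were higher and 540 lower in that fit. With the covariate, 1 member was higher and 2 were lower (Col3a1 and Col12a1). The member higher without the covariate was Col19a1 (log2 fold change 0.67, SE 0.302, edgeR adjusted p = 0.506). Col19a1 stood at 8.22, 6.46, 4.77 and 9.01 CPM in the double-knockout libraries and 5.13, 5.14 and 2.94 CPM in the Raptor-knockout libraries. For Col3a1 the log2 difference was 0.001, with an interval of 2 SE either way of -0.51 to 0.51. For Col1a1 it was 0.13 (-0.39 to 0.64), for Col5a2 0.17 (-0.25 to 0.58) and for Col4a1 0.25 (-0.08 to 0.58). Col12a1 (-0.25, -1.22 to 0.72) and Col7a1 (-0.099, -0.76 to 0.56) were the members with a negative difference. These intervals allow differences in either direction, so the calls made against wild type in the double knockout alone do not show that the knockouts differ.

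A sequence that many of these genes share is the match to the miR-29 seed, the family of microRNAs best known for lowering collagen messages in the mouse heart and liver. No microRNA was measured here, so the matches describe the genes and not their regulation. The mature mouse sequences, from RefSeq (GRCm38.p6), are given with the seed (bases 2 to 8) in capitals.
mmu-miR-29a-3p: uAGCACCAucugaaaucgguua
mmu-miR-29b-3p: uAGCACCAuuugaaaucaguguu
mmu-miR-29c-3p: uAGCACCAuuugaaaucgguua
The seed is the same in all 3, and a transcript matches it with the letters TGGTGCT. In the stretch after the stop codon of the annotated transcript (GENCODE M21), 16 of 26 tested collagens (61.5%) held TGGTGCT, against 14.6% of 9760 tested coding genes. The median length searched was similar, at 920.5 bases for the collagens and 1017.5 for the coding genes. By class the match was present in 6 of 7 fibrillar, 3 of 3 basement membrane and 7 of 16 other genes. Among members that rose in the double knockout, 11 of 18 (61.1%) held a match in a median of 835.5 bases searched. Among those not called 5 of 8 (62.5%) did in a median of 1930.5 bases. The 26 and the 8 include Col18a1, which has 0 annotated bases after its stop codon and could hold no match. Genes of that kind were left out of the 9760. Matches per kilobase were 0.857 in the members that rose and 0.465 in the others. That difference was not tested. The first match of some of the members with the highest levels or folds is shown with its flanking bases, the match in capitals.
Col1a1 (chromosome 11): gtgggaaggaatttcTGGTGCTatagaagc
Col3a1 (chromosome 1): ttcaaaatgtctcaaTGGTGCTataataaa
Col5a2 (chromosome 1): cttttcttttaatgaTGGTGCTaaaattat
Col4a1 (chromosome 8): gccaccgtcacaacaTGGTGCTactccccc
Col6a3 (chromosome 1): cgtgacctgtcaataTGGTGCTaaatgtgt
Col8a1 (chromosome 16): ctgtatattctaccaTGGTGCTaatatcag
These matches begin 919 bases after the stop codon in Col1a1, 235 in Col3a1, 1112 in Col5a2, 33 in Col4a1, 174 in Col6a3 and 2199 in Col8a1. Col1a2, Col14a1 and Col19a1, which also rose in the double knockout, held none in the annotated stretch.

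Promoter letters were counted as well. RefSeq windows were found for 35 of the 44 members, 21 of them tested. Among 23 windows of tested collagens, on either strand, CCAAT was in 30.4%, TATAAA in 8.70%, GGGCGG in 60.9% and TGANTCA, the AP-1 motif, in 4.35%. Among 10345 windows of all tested genes the shares were 37.2%, 7.53%, 62.9% and 4.96%. The window of Col1a2 (chr6:4505368-4505667, plus strand) is shown as that of a fibrillar gene that rose and has CCAAT boxes, in capitals, in both senses.
Col1a2: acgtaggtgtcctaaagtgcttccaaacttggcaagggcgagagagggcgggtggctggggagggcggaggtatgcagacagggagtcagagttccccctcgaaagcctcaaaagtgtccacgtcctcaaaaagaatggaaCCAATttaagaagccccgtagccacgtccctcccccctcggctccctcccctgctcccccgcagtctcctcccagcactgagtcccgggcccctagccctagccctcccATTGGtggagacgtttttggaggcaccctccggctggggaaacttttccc
It holds 2 CCAAT matches and 2 GGGCGG matches and no TATAAA. The CCAAT begins 109 bases before the RefSeq start, and the ATTGG begins at the start itself. That window lies inside the annotated Col1a2 gene, which begins at 4504814, so its start is not the outermost annotated one.

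The genes that make, finish and cross-link collagen were read from lists of 78 genes, 61 of them tested; in the double knockout 17 of these 61 rose and 3 fell, and in the Raptor knockout 8 rose and 3 fell. Over all tested genes 13.0% rose and 13.7% fell in the double knockout. The shares for the Raptor knockout were 8.73% and 9.43%. Enzymes that hydroxylate and glycosylate the chains had 5 of 14 tested members higher in the double knockout, and 2 higher and 1 lower in the Raptor knockout. P3h2, a prolyl 3-hydroxylase that acts on basement membrane collagen, stood at 13.6, 10.2, 10.3 and 4.36 CPM in the double-knockout libraries, 10.8, 11.1 and 8.81 CPM in the Raptor-knockout libraries and 2.301, 1.43, 1.64 and 1.803 CPM in the wild-type libraries. Every knockout library was above wild type, double-knockout replicate 4 by the narrowest gap, and P3h2 rose 5.23-fold in the double knockout (log2 fold change 2.39, SE 0.33, edgeR adjusted p = 6.02e-05) and 5.57-fold in the Raptor knockout (log2 fold change 2.48, SE 0.34, edgeR adjusted p = 0.000146). P4hb, the beta subunit of prolyl 4-hydroxylase and a disulfide isomerase, averaged 129 ± 14.1 CPM in the double knockout, 114 ± 11.1 CPM in the Raptor knockout and 71.02 ± 5.92 CPM in wild type, a rise of 1.82-fold in the double knockout (edgeR adjusted p = 0.000112) and 1.61-fold in the Raptor knockout (edgeR adjusted p = 0.00239). The lysyl hydroxylase Plod3 (2.02-fold, edgeR adjusted p = 0.00579) and P3h4, which forms part of a lysyl hydroxylase complex (2.14-fold, edgeR adjusted p = 0.00886), rose in the double knockout. The 1 gene that fell in the Raptor knockout was P4ha2, an alpha subunit of prolyl 4-hydroxylase, named after its values were seen (log2 fold change -0.99, SE 0.25, edgeR adjusted p = 0.0104).

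Chaperones and export factors had 2 of 9 tested members higher and 0 lower in the double knockout. At edgeR's unadjusted p under 0.05, 3 were higher and 3 lower there. Over all tested genes 13.0% rose in the double knockout and 8.73% in the Raptor knockout. In the Raptor knockout edgeR and DESeq2 called 0 of these 9 in either direction, with 1 higher and 2 lower at edgeR's unadjusted p under 0.05. The double-knockout genes were Serpinh1, which encodes the collagen chaperone HSP47 (2.099-fold, edgeR adjusted p = 0.0261), and Sparc, a collagen-binding matrix protein (1.76-fold, edgeR adjusted p = 0.000548). Of 4 tested genes for propeptide removal, the enhancers Pcolce (1.604-fold, edgeR adjusted p = 0.02403) and Pcolce2 (1.61-fold, edgeR adjusted p = 0.0203) rose in the double knockout. In the Raptor knockout 0 of the 4 were called by edgeR or DESeq2, with 0 at an unadjusted p under 0.05. All 3 tested lysyl oxidases rose in both knockouts by edgeR, and the DESeq2 Wald test called 2 of the 3 in each. Loxl1 stood at 33.2, 22.9, 29.4 and 20.9 CPM in the double-knockout libraries, 22.8, 21.4 and 17.3 CPM in the Raptor-knockout libraries and 6.67, 15.7, 11.2 and 11.5 CPM in the wild-type libraries. Its knockout libraries all lay above wild type. The rise of Loxl1 was 2.39-fold in the double knockout (log2 fold change 1.26, SE 0.23, edgeR adjusted p = 0.000653) and 1.85-fold in the Raptor knockout (log2 fold change 0.89, SE 0.24, edgeR adjusted p = 0.0187). Lox, the founding lysyl oxidase, rose 1.96-fold in the double knockout (edgeR adjusted p = 0.00852) and 1.76-fold in the Raptor knockout (edgeR adjusted p = 0.0445). Loxl2 rose 1.63-fold in the double knockout (edgeR adjusted p = 0.0444) and 1.93-fold in the Raptor knockout (edgeR adjusted p = 0.0171).

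**Figure D5:**
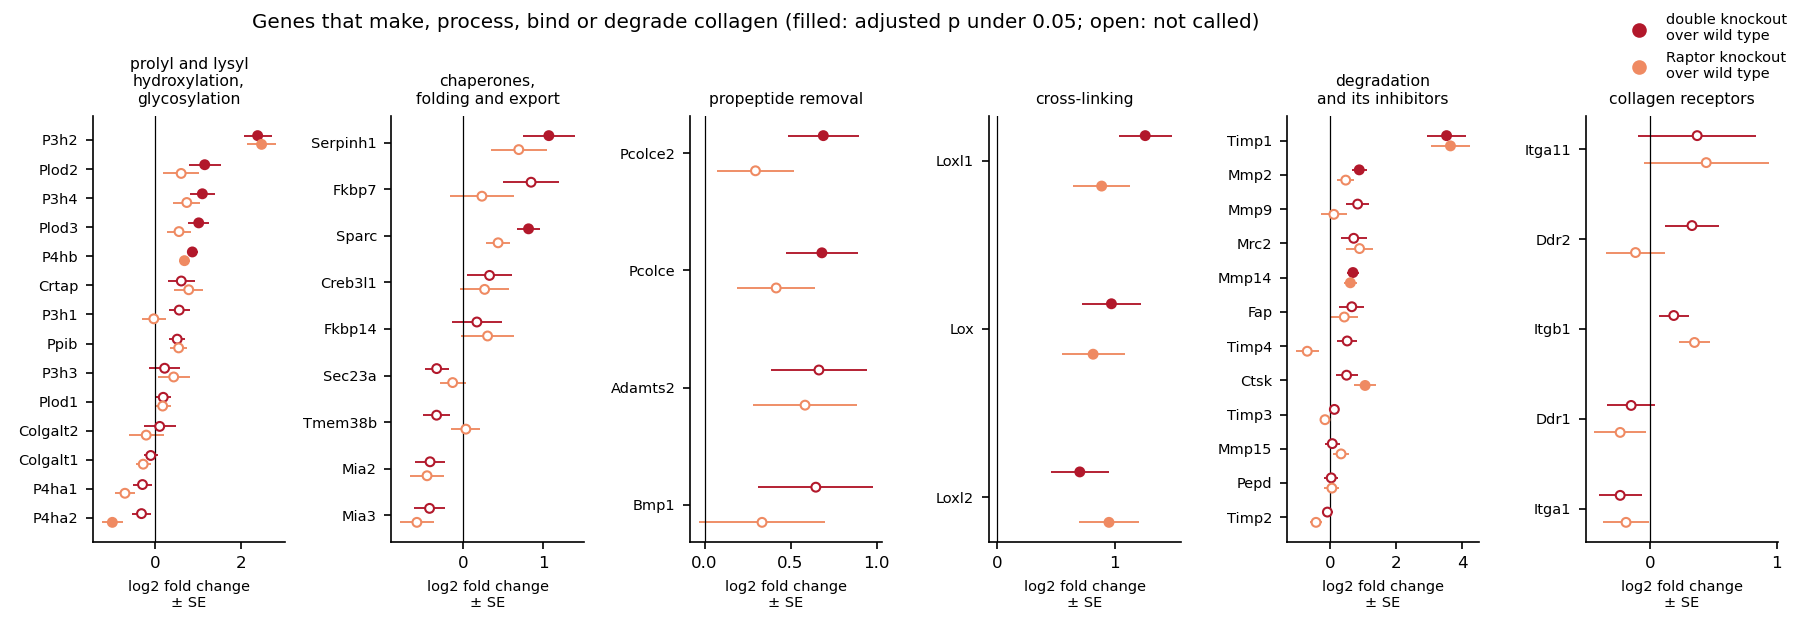
Log2 fold change with its standard error for the tested genes that hydroxylate, fold, trim, cross-link, degrade or bind collagen, for the double knockout over wild type and the Raptor knockout over wild type. Filled points passed an adjusted p under 0.05: all 3 lysyl oxidases are filled in both comparisons, and 0 of 5 receptors in either.

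Genes of collagen breakdown and its inhibition had 3 of 12 tested members higher in each knockout. Of all tested genes, 13.0% rose in the double knockout and 8.73% in the Raptor knockout. Timp1, an inhibitor of metalloproteinases, stood at 3.79, 3.23, 1.86 and 2.91 CPM in the double-knockout libraries, 2.82, 4.06 and 2.64 CPM in the Raptor-knockout libraries and 0.4602, 0, 0.329 and 0 CPM in the wild-type libraries. It had 41 counts in the double knockout, 35 in the Raptor knockout and 4 in wild type over all libraries of a group, and was called in both at an edgeR adjusted p of 0.000326 in the double knockout and 0.000561 in the Raptor knockout. Mmp14, a membrane-bound collagenase, rose 1.62-fold in the double knockout (edgeR adjusted p = 0.00806) and 1.54-fold in the Raptor knockout (edgeR adjusted p = 0.0328). The gelatinase Mmp2 rose 1.85-fold in the double knockout (edgeR adjusted p = 0.00965), and Ctsk, the collagen-cutting cathepsin K, 2.09-fold in the Raptor knockout (edgeR adjusted p = 0.0382). Of 5 tested collagen receptors 0 passed in either direction by edgeR or DESeq2; at edgeR's unadjusted p under 0.05, 0 passed in the double knockout and 1 was higher in the Raptor knockout. The most abundant were Itgb1, the shared beta chain of collagen-binding integrins, at 135 ± 6.201 CPM in the double knockout, 151 ± 13.3 CPM in the Raptor knockout and 118 ± 11.4 CPM in wild type, and its partner Itga1 at 22.5 ± 2.41 CPM in the double knockout, 23.2 ± 3.15 CPM in the Raptor knockout and 26.5 ± 4.99 CPM in wild type. Among 14 tested genes of transforming growth factor beta signalling and related regulators, 2 rose and 3 fell in the double knockout, and 2 fell in the Raptor knockout, counts near the shares over all tested genes. The signal-carrying Smad3 averaged 23.3 ± 3.91 CPM in the double knockout, 17.96 ± 4.501 CPM in the Raptor knockout and 42.7 ± 11.7 CPM in wild type and fell in both (log2 fold change -0.88, edgeR adjusted p = 0.00611 in the double knockout, and -1.25, edgeR adjusted p = 0.001701 in the Raptor knockout). Its partner Smad4 fell in both as well (log2 fold change -0.62, edgeR adjusted p = 0.0147 in the double knockout, and -0.803, edgeR adjusted p = 0.00764 in the Raptor knockout). In the double knockout Mrtfa, an actin-sensing coactivator, fell (log2 fold change -1.09, edgeR adjusted p = 0.0252). Ltbp4, a latent growth factor binder named after its values were seen, rose 1.59-fold in the double knockout (edgeR adjusted p = 0.0306).

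Some markers of the cells that make matrix were higher as well. Of 13 tested fibroblast and fibro-adipogenic markers, a list that holds no collagen, 7 rose in the double knockout and 3 in the Raptor knockout, where 13.0% and 8.73% of all tested genes rose. Their summed level was 1797 to 1879 CPM in the double knockout, 1498 to 1560.4 CPM in the Raptor knockout and 960.03 to 1539 CPM in wild type; the double knockout did not overlap with wild type and the Raptor knockout did. Lum, a proteoglycan of collagen fibrils, rose 2.201-fold in the double knockout (edgeR adjusted p = 0.000444) and 1.92-fold in the Raptor knockout (edgeR adjusted p = 0.00496). Mfap5, a microfibril protein, rose 3.37-fold in the double knockout (edgeR adjusted p = 0.000456) and 2.04-fold in the Raptor knockout (edgeR adjusted p = 0.0322). Divided by the summed markers, the fibrillar sum gave 0.374, 0.309, 0.3098 and 0.253 in the double-knockout libraries, 0.3502, 0.327 and 0.363 in the Raptor-knockout libraries and 0.214, 0.195, 0.234 and 0.1605 in the wild-type libraries. All knockout libraries were above all wild-type ones on this ratio. Its denominator is mostly Dcn, the proteoglycan decorin, and Gsn, the actin-severing gelsolin, which together held 78.97 to 82.3% in the double knockout, 78.2 to 82.4% in the Raptor knockout and 80.03 to 84.3% in wild type of the summed markers. Gsn rose 1.64-fold in the double knockout (edgeR adjusted p = 0.00397) and was not called in the Raptor knockout (log2 fold change 0.44, edgeR adjusted p = 0.0914). Dcn was called in neither (log2 fold change 0.31, edgeR adjusted p = 0.155 in the double knockout, and 0.04, edgeR adjusted p = 0.899 in the Raptor knockout). The ratio therefore mainly sets the fibrillar sum against these 2 genes. Of 6 tested tenocyte markers, 3 rose in each knockout, and the sum was 201 to 293 CPM in the double knockout, 195 to 256 CPM in the Raptor knockout and 103 to 139.8 CPM in wild type, with no overlap between either knockout and wild type. Thbs4, a tendon thrombospondin, rose 3.398-fold in the double knockout (edgeR adjusted p = 9.49e-07) and 2.82-fold in the Raptor knockout (edgeR adjusted p = 1.63e-05). Tnmd, tenomodulin, rose 2.35-fold in the double knockout (edgeR adjusted p = 0.000951) and 2.25-fold in the Raptor knockout (edgeR adjusted p = 0.00351). The part of these markers in the collagen differences was not tested.

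Of 12 tested macrophage markers, 7 rose in the double knockout and 5 in the Raptor knockout. The shares over all tested genes were 13.0% higher and 13.7% lower in the double knockout. For the Raptor knockout these shares were 8.73% and 9.43%. Macrophage sums were 187 to 253 CPM in the double knockout and 140.2 to 275 CPM in the Raptor knockout. In wild type they were 90.5 to 154 CPM. Lgals3 rose 3.18-fold in the double knockout (edgeR adjusted p = 7.44e-05) and 2.76-fold in the Raptor knockout (edgeR adjusted p = 0.000752), and Cd163 2.16-fold in the double knockout (edgeR adjusted p = 0.00288). Of 11 endothelial markers 0 were called in either direction by edgeR or DESeq2 in the comparisons with wild type, with 1 lower in the double knockout and 1 higher in the Raptor knockout at edgeR's unadjusted p under 0.05. Their sums overlapped, at 207 to 247 CPM in the double knockout, 210.5 to 259 CPM in the Raptor knockout and 207 to 304 CPM in wild type. Of 9 pericyte and smooth muscle markers, 1 rose and 1 fell in each knockout, counts near the shares over all tested genes. The sums overlapped (282 to 358 CPM in the double knockout, 296 to 359 CPM in the Raptor knockout and 306 to 335 CPM in wild type). Abcc9 fell in both (log2 fold change -0.57, edgeR adjusted p = 0.00293 in the double knockout, and -0.62, edgeR adjusted p = 0.00454 in the Raptor knockout). Acta2 rose in the double knockout (1.63-fold, edgeR adjusted p = 0.0272). Satellite cell sums were 25.3 to 33.7 CPM in the double knockout, 27.9 to 38.5 CPM in the Raptor knockout and 23.96 to 30.4 CPM in wild type. Schwann cell sums were 130.5 to 321 CPM in the double knockout, 93.6 to 238 CPM in the Raptor knockout and 106 to 131 CPM in wild type. Adipocyte sums were 91.3 to 362 CPM in the double knockout, 99.99 to 203 CPM in the Raptor knockout and 68.6 to 241 CPM in wild type, with overlap in each. The only edgeR call among these lists was Pmp22 (1.904-fold higher in the double knockout, edgeR adjusted p = 0.00812). Erythroid sums were 2612 to 3174 CPM in the double knockout, 2177 to 10014 CPM in the Raptor knockout and 1666 to 3363 CPM in wild type, with Hbb-bt 2.399-fold higher in the Raptor knockout (edgeR adjusted p = 0.0476). Lymphocyte markers had 0 to 5 counts each in all libraries together, and Cd4 was at 0 in every library. Myofibre genes, which the labelled tissue should express, summed to 94765 to 113030.0 CPM in the double knockout, 96276 to 106074 CPM in the Raptor knockout and 112319 to 117016 CPM in wild type. Of 11, 3 rose and 5 fell in the double knockout and 3 rose and 4 fell in the Raptor knockout, led by Pvalb (log2 fold change -1.68, edgeR adjusted p = 4.71e-05 in the double knockout, and -1.07, edgeR adjusted p = 0.00475 in the Raptor knockout) and Tnnt3 (log2 fold change -1.101, edgeR adjusted p = 4.94e-06 in the double knockout, and -0.89, edgeR adjusted p = 0.000156 in the Raptor knockout).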

How the data were processed

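The deposited gene tables hold expected counts that the authors made from the reads and did not normalize, and a deposited table holds the authors' TPM for the same libraries. The submitters' processing notes name fastp 0.20.0, STAR 2.7.0, RSEM 1.3.3 and GRCm38 (mm10); the annotation release, filters and strand setting are not given in the sources used here. A further 6 deposited columns could be tied to no label and stayed out. Rounding of the expected counts touched 2.25% of values and moved no library total by more than 30.2. Per the labels, groups are the genotypes; each library is 1 mouse, numbered in record order, and p-values measure the spread between these mice.

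Tests used edgeR 4.0.16 (R 4.3.3), with genes filtered by filterByExpr, TMM scaling, a robust quasi-likelihood fit of 3 groups over 11 libraries with 8 residual degrees of freedom, and the two-sided quasi-likelihood F test with Benjamini-Hochberg adjustment over 10505 genes. The standard error is the log2 fold change divided by the square root of F. The biological coefficient of variation was 20.6%. A low library total widens the error of rare members: 1 count was worth 0.164 to 0.358 CPM. No library was a repeat of another (lowest chi-square per degree of freedom 3.04). The fit was tested on simulated data with known changes. Alternatives were DESeq2 1.42.0 size factors and Wald test, library totals, no filter, 2 groups only, sequencing run, Xist, limma 3.58.1 on log2 TPM, and each library left out. Every tested collagen is named; pathway genes are those with the smallest adjusted p, at most 4 a list, and marker genes at most 2; P4ha2 and Ltbp4 were named after their values were seen, and Dcn and Gsn for their share of a sum. A result for 1 pathway gene is not reported here. The members, gene lists and tests were chosen with earlier results of these data known. Sequences come from RefSeq (GRCm38.p6) and GENCODE M21.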

Additional observations from a re-analysis of the deposited data

Results flagged for a closer look

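Within groups of 4 libraries, 3 of 60 collagen values had 1 library set far from the others by Dixon's criterion, which chance gives in about 5% of groups. Col4a2 stood at 55.8 CPM in double-knockout replicate 2, above the other 3 double-knockout libraries at 43.0 to 45.1 CPM. Col7a1 stood at 2.53 CPM in double-knockout replicate 1, below the other 3 at 4.24 to 4.36 CPM. Col5a1 stood at 6.21 CPM in wild-type replicate 1, below the other 3 wild-type libraries at 13.8 to 15.1 CPM.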

How the results depend on the processing

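The number of collagens higher in the double knockout than in wild type (18) was 10 with the Xist covariate and 4 with the Xist-carrying libraries left out, which leaves 1 double-knockout library and fewer samples. The other alternatives gave 12 to 19. The number higher in the Raptor knockout than in wild type (9) was 5 on log2 of TPM + 0.1 (18 members tested) and 4 on log2 of TPM + 1 with no filter (44 tested), and otherwise 6 to 12; the cause was not tested. Leaving out 1 library at a time gave 12 to 18 in the double knockout and 6 to 9 in the Raptor knockout. The calls kept whichever library was left out were 10 of 18 in the double knockout and 6 of 9 in the Raptor knockout. Those ended by no alternative that tested them were 4 in each knockout. In the double knockout these were Col3a1, Col8a1, Col14a1 and Col19a1, and in the Raptor knockout Col1a1, Col3a1, Col6a3 and Col8a1. Besides leaving out 1 library there were 12 alternatives, and Col19a1 was tested in 10 of them. Its mean TPM was under the minimum of 1 set in the limma fits with a filter. Over all single-gene values and settings, 1598 kept their side of the threshold, 101 lost it, 12 gained it and 0 called values changed sign. The 1598 include values not called in either fit, among them those of the double knockout over the Raptor knockout. All 101 losses fell on the 18 and 9 calls made against wild type. Library totals in place of TMM moved the median of all genes by 0.23 (double knockout) and 0.20 (Raptor knockout) on the log2 scale. No paired analysis was possible because the labels give the groups no shared replicate numbers. The members with under 100 counts in all (Col12a1, Col13a1, Col20a1 and Col23a1) are the least precise of those tested.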
